A study of Homo sapiens with 8 samples.

Results

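The genes described here are the 10 of polyamine metabolism: ODC1, AMD1, SRM and SMS for synthesis, OAZ1, OAZ2 and AZIN1 for the control of ODC1, and SAT1, SMOX and PAOX for catabolism. They were listed by name, and SAT1 was chosen by its higher level at 40 than at 10 min in these same libraries, so its change over time is a description with no test. Of the 10, 9 had a row among the 19351 gene names of the tables, and OAZ2 was not analysed here. Each gene was read from its transcript with the largest span, and all 9 passed the filter on low counts, which left 17840 genes.

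The assay was GRO-seq, where polymerases already engaged on DNA run on in isolated nuclei and the extended nascent RNA is sequenced. All libraries came from MRC5 human lung fibroblasts (immortalized with SV40 and called MRC5_VA in the study's methods) first treated for 3.5 h with DRB (100 µM), which stops RNA polymerase II (RNAPII) from leaving the start of genes, and then washed. The cells carried a knockdown of the noncoding RNA ZFAS1 (KD, by a lentiviral short hairpin RNA in the study's methods) or were wild-type (WT), and they received 10 J/m2 of UV-C or none. Run-on, for 5 min, was done on nuclei from 40 or 10 min of recovery. Each of the 8 combinations was 1 library. Whether cultures were separate is not stated, and a difference is tested as 4 matched pairs of libraries against the spread that the other factors leave.

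Putrescine, spermidine and spermine are small polycations that bind nucleic acids and are needed for growth. ODC1, ornithine decarboxylase, makes putrescine, AMD1 supplies decarboxylated S-adenosylmethionine, and SRM and SMS use it to build spermidine and spermine. Antizymes such as OAZ1 and OAZ2 bind ODC1 and send it to the proteasome, and AZIN1, an inactive relative of ODC1, draws the antizymes away. SAT1 acetylates spermidine and spermine for export or for oxidation by PAOX, and SMOX oxidizes spermine directly. ODC1 and AMD1 are known for fast turnover and SAT1 for its induction by polyamines and stress.

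RefSeq start-site windows held 300 bases (250 before and 50 from the start site, GRCh38.p14, the coordinates of hg38). Windows of 7 of the 10 genes were read, and those of AZIN1, SMOX and PAOX were not. Those printed here were taken as they belong to the gene picked for its time change (SAT1) and to ODC1 and SRM, the synthesis genes that differed most between KD and WT libraries. Capitals mark exact matches, on either strand, to any of 6 short motifs spelled out with their shares after the sequences, and no matches overlap in these windows. SAT1 is shown from chrX:23782923-23783222 on the plus strand, and SRM from chr1:11059969-11060268 on the minus strand. ODC1 is shown from both its windows on the minus strand, chr2:10448278-10448577 at the start site of the counted transcript (ODC1 upstream) and chr2:10447963-10448262 at a second start site, which is not that of the counted transcript (ODC1 downstream).
SAT1: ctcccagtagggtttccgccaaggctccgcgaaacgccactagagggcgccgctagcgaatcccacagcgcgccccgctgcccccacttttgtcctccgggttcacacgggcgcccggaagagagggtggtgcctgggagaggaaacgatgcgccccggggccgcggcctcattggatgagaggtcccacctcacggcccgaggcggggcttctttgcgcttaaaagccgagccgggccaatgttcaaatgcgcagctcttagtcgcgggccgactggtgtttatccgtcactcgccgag
ODC1 upstream: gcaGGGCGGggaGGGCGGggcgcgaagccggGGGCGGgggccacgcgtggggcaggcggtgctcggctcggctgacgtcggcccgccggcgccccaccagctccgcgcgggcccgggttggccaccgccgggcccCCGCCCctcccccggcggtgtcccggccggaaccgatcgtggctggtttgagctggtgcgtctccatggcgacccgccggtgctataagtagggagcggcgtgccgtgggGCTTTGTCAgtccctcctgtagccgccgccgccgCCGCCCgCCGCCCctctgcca
ODC1 downstream: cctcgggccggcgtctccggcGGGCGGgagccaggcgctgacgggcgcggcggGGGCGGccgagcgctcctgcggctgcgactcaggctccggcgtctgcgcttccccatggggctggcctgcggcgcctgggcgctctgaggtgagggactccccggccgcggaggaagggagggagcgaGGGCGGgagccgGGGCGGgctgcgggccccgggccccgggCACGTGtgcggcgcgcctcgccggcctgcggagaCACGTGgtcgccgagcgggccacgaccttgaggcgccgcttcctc
SRM: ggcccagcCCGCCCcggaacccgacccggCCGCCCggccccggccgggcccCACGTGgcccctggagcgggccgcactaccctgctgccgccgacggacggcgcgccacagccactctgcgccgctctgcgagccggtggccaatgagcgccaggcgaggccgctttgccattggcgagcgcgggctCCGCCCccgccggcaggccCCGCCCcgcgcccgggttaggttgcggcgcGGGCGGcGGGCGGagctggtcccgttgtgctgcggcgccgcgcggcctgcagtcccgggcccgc

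The E-box, CACGTG, a sequence bound by MYC, occurred in the windows of 2 of the 7 genes and in 7.26% of all 35116 windows of the table. ODC1 had 2, at -29 to -24 and at 5 to 10 from the downstream start site (counted as 0), and 0 in the window of the counted transcript, and SRM had 1, at -199 to -194. The GC box, GGGCGG, was in the windows of 6 of the 7, all but SAT1, and in 45.0% of all windows. The SAT1 window held none of the 6 motifs, which says only that these letters are not in it. The cyclic AMP response element, TGACGTCA, was in no window of these 7 genes and in 1.85% of all. The AP-1 site (TGA, then any base, then TCA) was in that of OAZ2 and in 7.71% of all. The antioxidant response element, TGACNNNGC, was in the upstream ODC1 window and in 13.3% of all. The TATA box, TATAAA, was in the window of OAZ1 and in 11.5% of all. Members are counted by gene, with more than 1 window for ODC1 and AMD1, and the shares of all by window, so the 2 are not alike. The windows read were 65.3 to 82.0% G or C, against a median of 58.7% over all windows. The part of this in the motif counts was not tested. A match is a description of sequence, not a bound site.

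Each library held between 10.23 and 21.08 M reads over genes, the highest in WT without UV at 40 min. ZFAS1, the targeted RNA, was at 694 to 1596 CPM (counts per M reads after TMM scaling, which evens out library composition) in the libraries labelled KD and at 507 to 1789 CPM in WT. It was higher in KD in 3 of the 4 matched pairs and lower in KD without UV at 40 min, 1596 CPM against 1789 in WT. RNA interference acts on finished RNA, so these nascent reads do not check the knockdown. All 10 fibroblast markers had reads in every library, with a summed density of 40.5 to 115 CPM per kb in KD and 80.5 to 177 in WT, among them COL1A1 and VIM, while DCN stayed at 0.12 CPM per kb or below and THY1 at 0.40 or below outside the WT libraries with UV, where it was 2.61 at 40 min and 9.44 at 10 min. A level is a mean over the culture, so fewer cells with a transcript and less RNA per cell cannot be told apart. The 4 endothelial markers summed to 1.23 to 2.19 CPM per kb in KD and 0.534 to 1.72 in WT, and the 5 immune markers to 0.885 to 2.91 in KD and 1.18 to 3.13 in WT. The 5 epithelial markers summed to 2.31 to 6.91 in KD and 3.87 to 7.74 in WT, most of it from KRT18. The tables list transcripts in 2 orders, and the split falls exactly between KD with UV and WT without UV on one side and KD without UV and WT with UV on the other. It cannot be told apart from the KD by UV term.

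Per kb of span, ODC1 had the highest median level of the members, 9.44 CPM per kb, with 3.80 in the lowest and 14.7 in the highest library (GENCODE v44: chromosome 2, 10439968 to 10448327, minus strand, 12 exons). SAT1 followed at a median of 5.65 (1.16 to 18.6), AZIN1 at 5.47 (3.69 to 13.9), SMS at 3.73 (1.58 to 8.51) and AMD1 at 2.59 (1.93 to 6.01). SRM had 1.63 (0.465 to 2.98) and OAZ1 1.13 (0.119 to 2.20). SMOX, at 0.294 (0.175 to 0.487), and PAOX, at 0.122 (0.0389 to 0.157), were the lowest. Ranges over the libraries overlapped between all neighbours in this order except SMOX and PAOX. Densities are over whole spans of 1.46 (OAZ1) to 54.1 kb (SMS), and the part of span in this order was not tested. The median of all tested genes lay between 0.446 and 0.540 CPM per kb, so the first 5 were above it in every library and both oxidases were below it. For comparison, immune markers, which these cells should lack, had a median of 0.143 CPM per kb and endothelial markers one of 0.197, so the median of PAOX was below both and that of SMOX above both. The widest range of a well-covered member was that of SAT1, whose highest library was 16.0 times its lowest, against 3.87 times for ODC1. SAT1 was chosen for its rise over time, and its highest library is of the later time and its lowest of the earlier. The width of its range follows in part from that choice and is a description with no test.

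**Figure D1:**
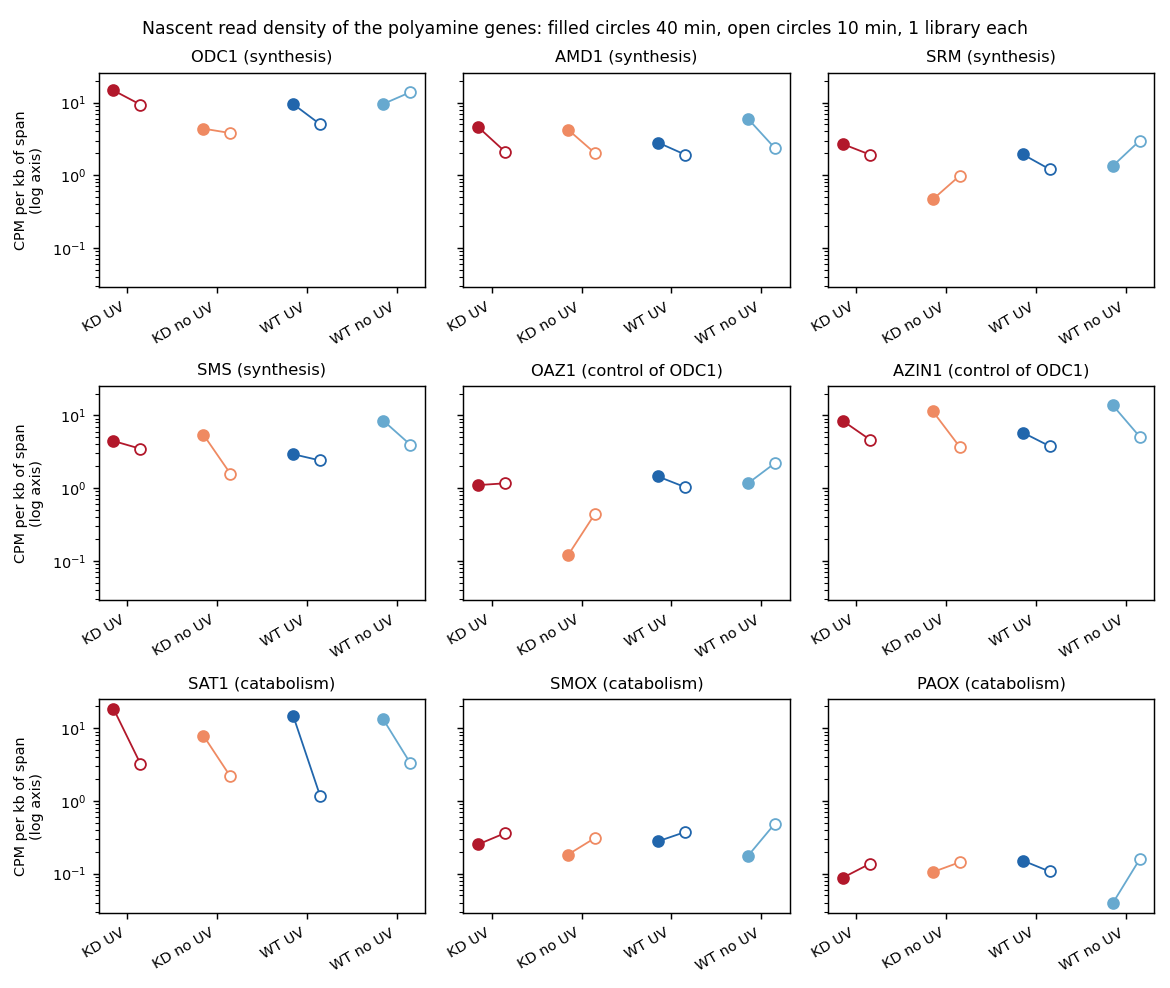
Nascent read density (CPM per kb of transcript span, log axis) of the 9 polyamine genes in each library, with filled circles for 40 min and open circles for 10 min and 1 line per condition. SAT1 was 7.95 to 18.6 CPM per kb at 40 min and 1.16 to 3.35 at 10 min, while ODC1 was lowest in both KD libraries without UV at 40 min, 4.38, and 10 min, 3.80.

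SAT1 (chromosome X, 23783173 to 23786226, plus strand, 6 exons) had 780 reads in KD with UV at 40 min, 279 in KD without UV, 599 in WT with UV and 842 in WT without UV. At 10 min the same conditions gave 117, 82, 40 and 105 reads. Scaled, these were 56.8, 24.3, 45.1 and 40.7 CPM at 40 min against 9.93, 6.65, 3.54 and 10.2 CPM at 10 min, so the times did not overlap, as the choice of the gene requires. The fitted ratio of 40 over 10 min was 5.41, 2.44 on the log2 scale. The pair ratio was 12.7-fold in WT with UV and 3.98-fold in WT without UV, and it was 5.72-fold in KD with UV and 3.65-fold in KD without UV. The highest ratio belonged to the pair whose 10 min library had the fewest SAT1 reads of all, 40, with levels at 40 min that were close between WT with and without UV.

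Within a library the level of SAT1 can be set against ODC1, the first enzyme of synthesis, with no scaling between libraries. SAT1 was chosen for its rise over time, so higher ratios at 40 than at 10 min follow in part from that choice. They are a description with no test. At 40 min SAT1 was denser than ODC1 in all 4 conditions, at a ratio per kb of 1.27 in KD with UV (95% counting interval 1.16 to 1.38), 1.81 in KD without UV (1.55 to 2.12), 1.55 in WT with UV (1.40 to 1.72) and 1.39 in WT without UV (1.28 to 1.51). At 10 min it was below ODC1 in all 4, at 0.347 (0.284 to 0.421), 0.573 (0.446 to 0.728), 0.232 (0.163 to 0.320) and 0.241 (0.196 to 0.295) in the same order of conditions. Against AMD1, AZIN1 and SMS this switch was not seen in every condition. In that order the ratios to AMD1 at 10 min were 1.55, 1.08, 0.603 and 1.42. Those to AZIN1 at 40 min were 2.21, 0.696, 2.54 and 0.959, and those to SMS at 10 min 0.935, 1.38, 0.484 and 0.842. Reads are over whole spans, 3.05 kb for SAT1 and 20.9 to 54.1 kb for AMD1, AZIN1 and SMS. The part of span in these ratios was not tested. Intervals here and below cover counting error only, since each rests on single libraries with no replicate. They treat every read as separate, as the reads carry no molecular identifiers.

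None of the 8 other members was called in the 40 over 10 min term at an adjusted p of 0.05 (edgeR quasi-likelihood test, Benjamini-Hochberg over 17840 genes), where 26 genes (0.146%) were called higher and 0 (0%) lower, and 2811 and 1100 had an unadjusted p under 0.05. DESeq2 called 1524 genes higher and 119 lower, and leaving out 1 library at a time gave 0 to 1765. AMD1, AZIN1 and SMS of these 8 were higher at 40 min in all 4 matched pairs, as were 27.7% of all tested genes, and SMOX was lower in all 4, as were 25.5%. Their median change was -0.03 on the log2 scale, against -0.10 over all genes.

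AMD1, which commits S-adenosylmethionine to polyamine synthesis (chromosome 6, 110874770 to 110895713, plus strand), had 96.3 CPM in KD with UV at 40 min, 88.7 in KD without UV, 59.0 in WT with UV and 126 in WT without UV. At 10 min it had 44.0, 42.1, 40.3 and 49.4 CPM, so every 40 min library was above every 10 min library. The share of all tested genes with such a full separation was not counted, here or for AZIN1 and SMOX below. The fitted ratio was 2.08-fold (log2 1.06 ± 0.31, SE, adjusted p = 0.0823 by edgeR). SMS, spermine synthase (chromosome X, 21940709 to 21994837, plus strand), had 241, 295, 158 and 461 CPM at 40 min in those conditions and 188, 85.5, 130 and 215 CPM at 10 min. Its times overlapped, and its fitted ratio was 1.79-fold (log2 0.84 ± 0.39, adjusted p = 0.224 by edgeR). Without UV its pair ratio was 3.45-fold in KD and 2.14-fold in WT, and with UV 1.28-fold in KD and 1.22-fold in WT.

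ODC1 had 123 CPM in KD with UV at 40 min, 36.6 in KD without UV, 79.6 in WT with UV and 80.0 in WT without UV, against 78.3, 31.8, 41.9 and 116 CPM at 10 min. It was higher at 40 min in 3 of 4 pairs and lower in WT without UV, with a fitted log2 change of 0.22 ± 0.44 (adjusted p = 0.746 by edgeR). Reads of SNORA80B, a small nucleolar RNA inside ODC1 on the same strand, count toward it. SRM, spermidine synthase (chromosome 1, 11054589 to 11060018, minus strand), had 14.6, 2.52, 10.5 and 7.25 CPM at 40 min, against 10.4, 5.35, 6.56 and 16.2 CPM at 10 min. It was higher at 40 min in both pairs with UV and lower in both without, and the fitted change was -0.27 ± 0.48 (adjusted p = 0.712 by edgeR).

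AZIN1, the antizyme inhibitor (chromosome 8, 102826308 to 102864163, minus strand), had 318 CPM in KD with UV at 40 min, 432 in KD without UV, 220 in WT with UV and 526 in WT without UV. At 10 min the values were 176, 140, 143 and 194 CPM, with no overlap between the times. The fitted ratio was 2.20-fold (log2 1.14 ± 0.33, adjusted p = 0.0817 by edgeR). Neither AMD1 nor AZIN1 passed. Without the WT library with UV at 40 min their adjusted p was 0.0282 and 0.0306, and with DESeq2 on all libraries 0.0181 and 0.0121. OAZ1, the antizyme itself, was counted only over an internal transcript of 1.46 kb (chromosome 19, 2271319 to 2272777, plus strand) of a gene that GENCODE v44 places at 2269509 to 2273490. It had 22, 2, 28 and 35 reads at 40 min and 20, 8, 17 and 33 reads at 10 min, too few to order the times (log2 -0.42 ± 0.53, adjusted p = 0.605 by edgeR). A read-through transcript on the same strand spans it as well.

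Of the oxidases, SMOX (chromosome 20, 4148779 to 4187747, plus strand) was the one with a common direction. It had 9.84 CPM in KD with UV at 40 min, 7.13 in KD without UV, 10.8 in WT with UV and 6.81 in WT without UV, against 14.1, 12.1, 14.5 and 19.0 CPM at 10 min. All 40 min libraries were below all 10 min libraries, the reverse of SAT1, but the change did not pass (log2 -0.80 ± 0.32, adjusted p = 0.178 by edgeR). PAOX (chromosome 10, 133379262 to 133391694, plus strand) had 10 to 25 reads at 40 min and 15 to 22 at 10 min, and a change was not detectable at this depth.

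Counts cover whole spans, introns included, so the time change was set beside span. The 3 members that were higher in all 4 pairs beside SAT1 span 20.9 (AMD1), 37.9 (AZIN1) and 54.1 kb (SMS), while SAT1 spans 3.05 kb, OAZ1 1.46, SRM 5.43 and ODC1 8.36 kb. Among all tested genes of 1 to 10 kb the median log2 ratio of 40 over 10 min was 0.17 in KD with UV, -0.32 in KD without UV, 0.29 in WT with UV and -0.69 in WT without UV. The SAT1 ratios, 2.52, 1.87, 3.67 and 1.99 on that scale, lay well above each of these medians. High time ratios follow from the choice of SAT1 for its rise, so this is a description with no test. ODC1, at 0.65, 0.20, 0.92 and -0.54, and SRM, at 0.48, -1.09, 0.68 and -1.16, were higher in the pairs with UV than in those without, as were these medians. SMOX, at 39.0 kb, had the opposite sign to AZIN1 in every pair.

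**Figure D2:**
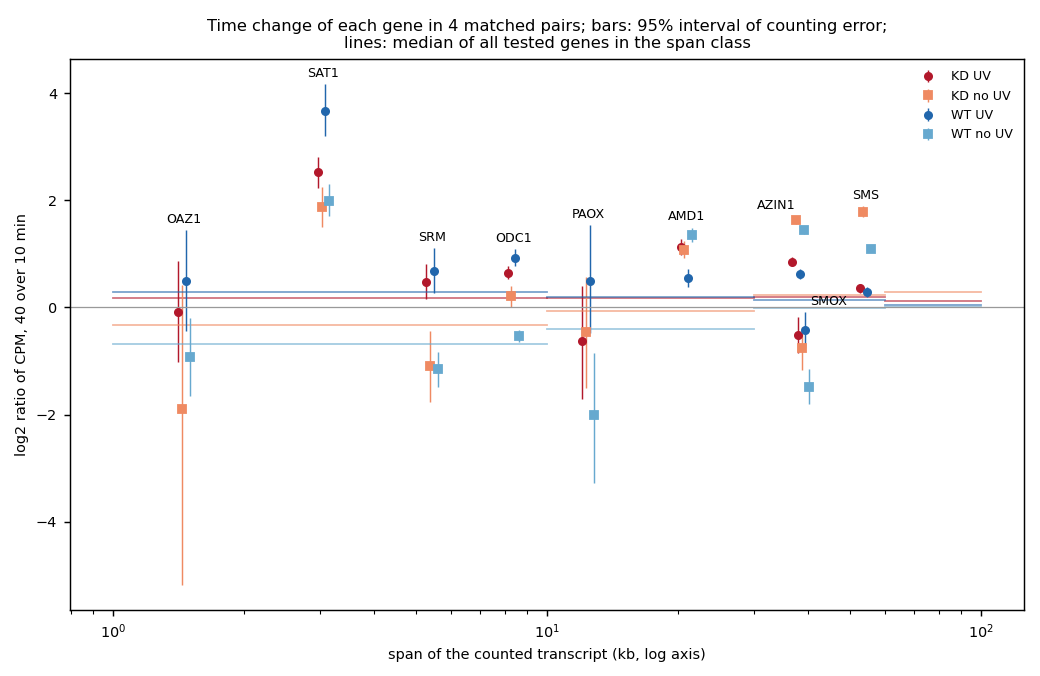
Log2 ratio of CPM at 40 over 10 min in each of 4 matched pairs (KD and WT, with and without UV) against the span of the counted transcript (kb, log axis), with 95% intervals of counting error and, as horizontal lines, the median of all tested genes in each span class. SAT1, chosen for its rise over time, lies between 1.87 and 3.67, above every other member. AZIN1 (0.62 to 1.63) and SMOX (-1.48 to -0.42) differ in sign at nearly the same span.

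AMD1 has a shorter annotated transcript inside the counted one, from 110888286 to 110895712, which divides its reads into a first part of 13.5 kb and a last part of 7.43 kb. The first part gained reads in every condition. Its density was 5.13 CPM per kb in KD with UV at 40 min against 1.46 at 10 min, 3.57 against 1.30 in KD without UV, 2.65 against 0.715 in WT with UV and 5.44 against 1.48 in WT without UV. As ratios these were 3.52 (95% counting interval 3.05 to 4.08), 2.74 (2.34 to 3.22), 3.71 (3.01 to 4.61) and 3.69 (3.19 to 4.29). The last part differed between UV and no UV. Its ratio of 40 over 10 min was 1.11 (0.946 to 1.30) in KD with UV and 0.756 (0.646 to 0.884) in WT with UV, and 1.65 (1.43 to 1.92) in KD without UV and 1.77 (1.56 to 2.02) in WT without UV. The first part held 72.0% of the AMD1 reads in KD with UV at 40 min (exact 95% interval 69.5 to 74.4), the highest share, and 24.0% (20.1 to 28.2) in WT with UV at 10 min, the lowest. These ratios come from single pairs with no replicate check.

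**Figure D3:**
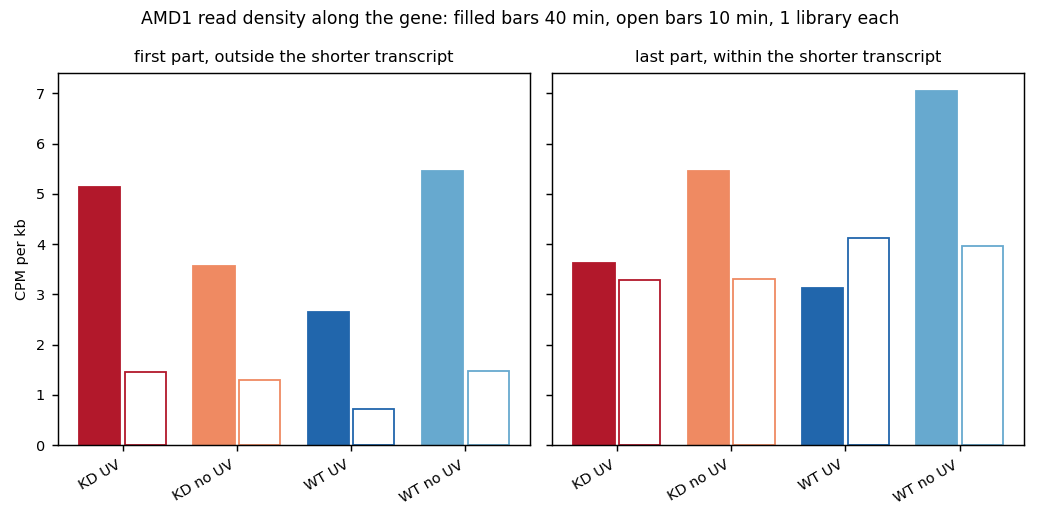
Read density (CPM per kb) of AMD1 in its first 13.5 kb and its last 7.43 kb in each library, with filled bars for 40 min and open bars for 10 min. The first part is denser at 40 min in all 4 conditions, whereas the last part in WT with UV is at 3.12 at 40 min and 4.13 at 10 min.

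The UV term and the KD term called none of the 9 members. Nor did they call any gene: for UV over no UV 0 (0%) were higher and 0 (0%) lower, with 155 and 149 at an unadjusted p under 0.05, and for KD over WT 0 (0%) and 0 (0%), with 43 and 41 (edgeR), and DESeq2 called 0 in both. The SAT1 value was 0.17 ± 0.40 on the log2 scale for UV and 0.05 ± 0.40 for KD, with the sign turned under 1 of 3 other scalings in each (-0.08 for UV on genes of 1 to 10 kb, -0.01 for KD on library totals). The smallest adjusted p of a member was 0.993 in the UV term and 1 in the KD term, where OAZ1 had the largest change (-1.21 ± 0.56, edgeR).

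The pairs behind those terms did not share a direction. The KD libraries had more nascent RNA of all 4 synthesis genes than WT with UV, and less without UV, at both times. For AMD1 with UV at 10 min the difference was within counting error (log2 ratio 0.13, counting interval -0.06 to 0.31). KD over WT was higher in both pairs with UV and lower in both pairs without UV for 6 of the 9 members, SAT1, ODC1, AMD1, SRM, SMS and AZIN1, a pattern that 34.1% of all tested genes had, and for 0 members the other way round (22.4% of all). ODC1 gave the clearest case. With UV it was 1.55-fold higher in KD than in WT at 40 min and 1.87-fold at 10 min, and without UV its level in KD was 0.458 times that in WT at 40 min and 0.274 times at 10 min. Its KD by UV term, the difference between these KD effects, was 4.91-fold (log2 2.30 ± 0.52, adjusted p = 0.0420 by edgeR). ODC1 was the only member called in this term, in which 5.04% of all genes were called higher and 3.95% lower, so 1 of 9 members is near the background.

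SRM followed ODC1, with 1.38-fold and 1.59-fold higher levels in KD than in WT with UV and 0.348 and 0.331 times those of WT without UV, at 40 and 10 min in each case. Its term was log2 2.08 ± 0.65 (adjusted p = 0.0545 by edgeR). OAZ1 had a term of 2.35 ± 0.84 (0.0697), but its pair without UV at 40 min rested on 2 reads in KD and 35 in WT (log2 ratio -3.28, counting interval -6.38 to -1.32). The terms of SMS, 1.48 ± 0.55 (adjusted p = 0.0758), and of SAT1, 1.42 ± 0.56 (0.0884), did not pass either, nor those of AMD1 (0.78 ± 0.45, 0.203), AZIN1 (0.77 ± 0.50, 0.254), SMOX (0.23 ± 0.50) and PAOX (-0.81 ± 0.84), all by edgeR. The median of the 9 was 1.42, against 0.11 over all genes and 0.44 over genes of 1 to 10 kb.

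Marker sums moved with this pattern, those of fibroblast and immune markers in all 4 pairs and that of epithelial markers in 3. The 10 fibroblast markers summed to 115 CPM per kb in KD and 110 in WT with UV at 40 min, and to 109 in KD and 80.5 in WT at 10 min. Without UV they summed to 46.1 in KD and 93.6 in WT at 40 min, and to 40.5 in KD and 177 in WT at 10 min. The immune sum was 2.91 in KD and 2.11 in WT with UV at 40 min and 2.48 and 1.18 at 10 min, and without UV 0.885 and 2.08 at 40 min and 0.919 and 3.13 at 10 min. The epithelial sum was 6.91 in KD and 7.40 in WT with UV at 40 min and 5.35 and 3.87 at 10 min, and without UV 2.31 and 4.42 at 40 min and 2.98 and 7.74 at 10 min. The endothelial sum was 1.23 in KD and 1.72 in WT with UV at 40 min and 1.94 and 1.55 at 10 min, and it was higher in KD at both times without UV, 2.19 and 0.534 at 40 min and 2.02 and 1.45 at 10 min. In the KD by UV term 2 of the 10 fibroblast markers were called higher and 1 lower, and of the 4 tested immune markers 2 were called higher and 0 lower (edgeR). Their part in the ODC1 result was not tested.

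The ODC1 call was lost without any 1 of the 4 KD libraries, at an adjusted p between 0.0777 (that of no UV at 40 min left out) and 0.138 (that of UV at 40 min left out), while the term itself stayed at log2 2.03 to 2.49. In those 4 fits 8 to 28 genes were called in all. By contrast the call held when any 1 of the WT libraries was left out. The number of genes called in this term ranged from 8 to 6091 over the 8 libraries left out, and the part of the order of the tables, which splits the libraries in the same way, cannot be told apart. Scaling set on genes of 1 to 10 kb put 13.8% of the calls on the higher side in place of 56.1%, with the median of all genes moved by -0.44, and ODC1 and SRM were called under it.

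**Figure D4:**
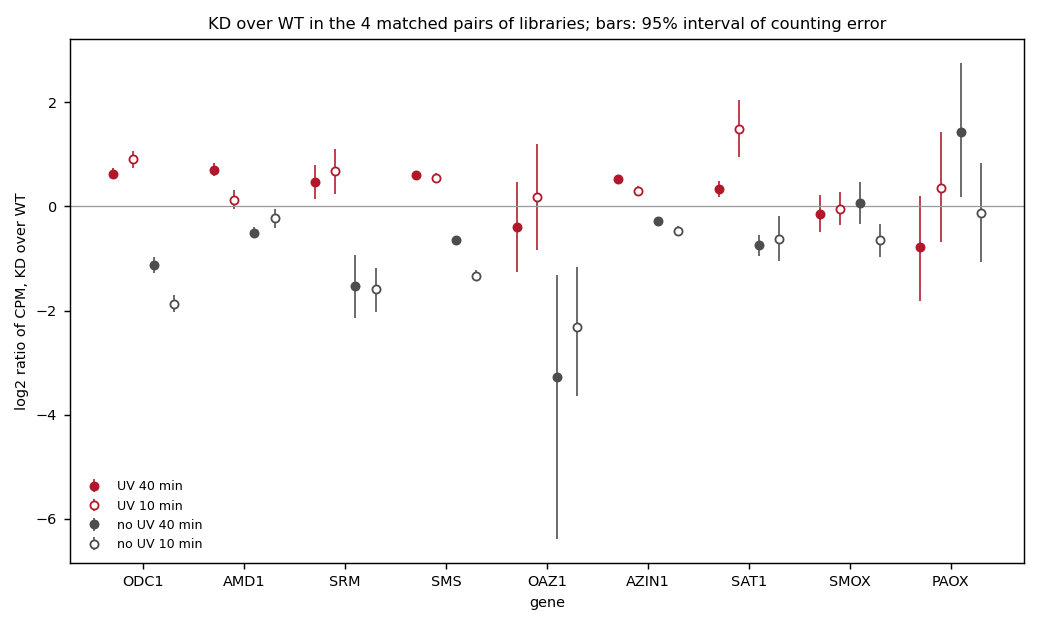
Log2 ratio of CPM in KD over WT libraries for each polyamine gene in 4 matched pairs (with UV in red and without UV in grey, filled for 40 min and open for 10 min), with 95% intervals of counting error. ODC1 is at 0.63 and 0.90 with UV and at -1.13 and -1.87 without UV at 40 and 10 min, and SAT1, SRM, SMS, AMD1 and AZIN1 are likewise above 0 with UV and below it without.

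Neither the UV by time nor the KD by time term called a member or, by edgeR, any gene (0% higher and 0% lower in both), with 220 and 266 genes at an unadjusted p under 0.05 in the first and 7 and 3 in the second, and 0 genes by DESeq2 in either. The UV by time values were positive for the members of under 10 kb, SRM at 1.66 ± 0.90, OAZ1 at 1.13 ± 1.09, ODC1 at 1.04 ± 0.91 and SAT1 at 0.98 ± 0.78, and negative for AMD1 at -0.35 ± 0.58, AZIN1 at -0.77 ± 0.60 and SMS at -1.02 ± 0.76. SMOX, at 0.66 ± 0.58, and PAOX, at 1.14 ± 0.90, were positive at spans of 39.0 and 12.4 kb, though SMOX was at -0.04 under scaling on genes of 1 to 10 kb. The median over all genes was 0.69 for 1 to 10 kb and 0.03 for 30 to 60 kb. The KD by time values lay between -0.33 for SAT1 and 0.59 for ODC1.

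Beyond these genes, a list of 31 others tied to polyamines had 30 with a row, all tested. It took in hypusine formation, the supply of ornithine, arginine and S-adenosylmethionine, methylthioadenosine salvage, transport, other catabolic genes and the regulators MYC, NFE2L2 and ATF4. In the 40 over 10 min term 0 of 30 were called, 24 were positive (45.1% of all tested genes were), and the median was 0.26 against -0.10 over all genes. In the KD by UV term 3 were called higher and 1 lower of 30, where 8.99% of all genes were called in either direction, with a median of 0.81 against 0.11. In the UV, KD, UV by time and KD by time terms 0 were called (edgeR).

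SLC7A1, the cationic amino acid transporter that brings in arginine and ornithine, had the highest mean level of the list. It had 558 CPM in KD with UV at 40 min, 356 in KD without UV, 265 in WT with UV and 677 in WT without UV, against 469, 132, 234 and 511 CPM at 10 min, and a KD by UV term of log2 2.41 ± 0.54 (adjusted p = 0.0420 by edgeR). EIF5A, a translation factor that carries the spermidine-derived residue hypusine, had 75.3, 30.7, 58.8 and 56.1 CPM at 40 min, against 62.7, 27.9, 29.7 and 99.1 CPM at 10 min in those conditions, and a term of 2.08 ± 0.55 (adjusted p = 0.0431 by edgeR). Both were lowest in the KD library without UV at 10 min. ATP13A3, a P-type ATPase involved in polyamine uptake, had a term of 1.64 ± 0.47 (adjusted p = 0.0475 by edgeR) with levels of 98.1 to 282 CPM. MAT1A, the liver form of methionine adenosyltransferase, had the one lower term, -2.01 ± 0.59 (adjusted p = 0.0484 by edgeR), at only 1.11 to 9.24 CPM. MTAP, the third of the list by mean level at 80.4 to 233 CPM, had a term of 1.21 ± 0.46 (adjusted p = 0.0785 by edgeR).

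The genes whose pattern over the 8 libraries was most like that of SAT1, among 8137 others with a mean of at least 20 CPM, were DUSP1 (Pearson r of log2 CPM 0.992), EGR1 (0.984), RNF139 (0.976), MYLIP (0.975) and ORMDL1 (0.972), with 18 genes above 0.95. DUSP1, a MAP kinase phosphatase, had 68.1 CPM in KD with UV at 40 min, 28.5 in KD without UV, 53.6 in WT with UV and 51.3 in WT without UV, against 19.0, 12.4, 9.39 and 17.2 CPM at 10 min. EGR1, an immediate early transcription factor, had 384, 182, 422 and 389 CPM at 40 min, against 57.0, 51.3, 27.9 and 53.3 CPM at 10 min. All the named genes shared with SAT1 the lowest 40 min level in KD without UV and the lowest 10 min level in WT with UV. They were picked for their likeness to SAT1 over these same libraries, so shared high and low libraries follow from that choice. The share of all genes with both traits was not counted. DUSP1 and EGR1 are short, at 3.10 and 3.82 kb, near the 3.05 kb of SAT1, while the other 3 span 13.2 to 19.2 kb. Of the polyamine genes, AMD1 was nearest to SAT1 at r = 0.83, then AZIN1 at 0.77, SMS at 0.64 and ODC1 at 0.52, with SRM at 0.16, OAZ1 at 0.03, PAOX at -0.43 and SMOX at -0.66. The 8 points share their libraries and depths, and the likeness is a description.

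**Figure D5:**
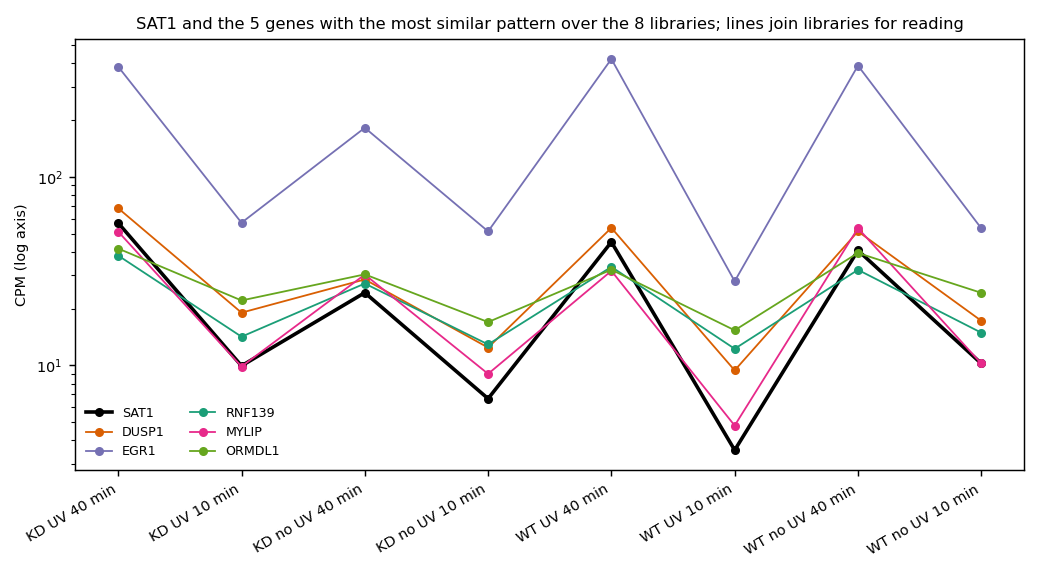
CPM (log axis) of SAT1 and the 5 genes most like it in the 8 libraries, with KD before WT and UV before no UV. All 6 lines are higher at 40 than at 10 min in each condition, and SAT1 ranges from 3.54 CPM in WT with UV at 10 min up to 56.8 CPM in KD with UV at 40 min.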

How the data were processed

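Nascent RNA of 8 libraries was counted over genes. The authors aligned reads to hg38 with BWA 0.5.9 and used SAMtools, per the submitters' processing notes, and deposited raw read counts per transcript with no normalization. The counter was not given in the sources used here, nor was its annotation release. Among 1289 nested transcripts of different genes on opposite strands the containing one was lower in a library in 151, but in 0 of 659 on the same strand, so counting was by strand. Reads in a nested or overlapping gene on that strand count toward both.

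The members and lists were chosen with earlier results of these data known. Genes were fitted in R 4.3.3 with edgeR 4.0.16 (quasi-likelihood, TMM scaling, a minimum count of 10 and total of 15, Benjamini-Hochberg at 0.05) with UV, cell and time as additive terms, which leaves 4 residual degrees of freedom, and each interaction with 3. The script was tested on simulated data. P-values measure only the spread between these libraries, which may be technical. Log2 CPM used a prior count of 2. Pair ratios have exact 95% binomial intervals. All members were named, and of the wider list the called genes and the 3 of highest mean CPM. Alternatives were DESeq2 1.42.0, limma-voom (limma 3.58.1), 3 scalings, no filter, the shortest transcript, subsets and leaving out each library. GENCODE v44 and RefSeq gave annotation and sequence. Figures used matplotlib 3.10.9.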

Additional observations from a re-analysis of the deposited data

Results flagged for a closer look

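The effect of KD differed between libraries with and without UV for 5 polyamine genes, by the KD by UV term of edgeR at an adjusted p of 0.05. These are 1 of the 9 members and 4 of the 30 genes of the wider list, in a term that called 8.99% of all genes. On the log2 scale the term was 2.30 for ODC1, 2.41 for SLC7A1, 2.08 for EIF5A, 1.64 for ATP13A3 and -2.01 for MAT1A. The order in which the deposited tables list transcripts splits the libraries in the same way, and its part cannot be told apart. With 1 library in each group, no group was large enough to look for a library far from the others.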

How the results depend on the processing

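Of the 9 members, the 8 other than SAT1 had 0 calls over time. There were 2 calls (AMD1, AZIN1) with DESeq2 (9.21% of all genes called), 4 (with SMS and SMOX, 26% of all) once table order was added to the model, which was decided after the values were seen, 5 in the libraries without UV alone (with SRM, SMS and SMOX, 31.2% of all), and 4 in those with UV alone (with ODC1 and SMOX, 22.7% of all). With 1 library left out there were 0 to 2, and the fit that gave 2 called 9.93% of all genes. For UV over no UV the KD libraries alone gave 2 (ODC1, SRM, 6.83% of all). For KD over WT the libraries without UV alone gave 3 (ODC1, OAZ1, SRM, 20.9% of all) and those with UV alone 1 (ODC1, 4.65% of all). In the KD by UV term the 1 call (8.99% of all) became 3 under RLE scaling (26.8%), 2 under TMM on genes of 1 to 10 kb (26.8%), 5 with DESeq2 (28.7%) and 2 with no filter on low counts (9.61%), ODC1 being called under each. It became 0 with the shortest transcript (ODC1 adjusted p = 0.0503 by edgeR, 1.56% of all called). With 1 library left out it was 0 to 4, and the fit that gave 4 called 8.68% of all genes. The cause was not tested. The subsets leave 1 residual degree of freedom. All other alternatives run left the members' counts as they were, and SAT1 was higher at 40 min in all 21 (log2 1.92 to 2.94). Without the fixed filter or under a bias-adjusted quasi-likelihood (also added then) 162 and 105 genes were called over time in place of 26. The median of all genes moved by up to -0.68 (UV by time, TMM on genes of 1 to 10 kb), and signs turned with scaling for UV over no UV (SAT1), KD over WT (SAT1, AMD1, AZIN1), KD by UV (SMOX), UV by time (SMOX) and KD by time (AMD1, AZIN1, SMS, PAOX). OAZ1 and PAOX were limited by depth, with 2 to 35 reads. No paired analysis was possible because each group held 1 library with no replicate number to block on, and libraries were matched only over the other factors, as in the fits.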
